A study of Mus musculus with 12 samples.

Results

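Natural killer (NK) cells with floxed Id2 and floxed Tcf7 were set against NK cells with floxed Tcf7 alone, which asks what targeting Id2 adds when Tcf7 is already targeted. The comparison took the 3 libraries labelled DKO (Ncr1Cre Id2F/F Tcf7F/F) and the 3 labelled Tcf1KO (Ncr1Cre Tcf7F/F), 6 of the 12 RNA-seq libraries in the series. Genes were tested when their FPKM (fragments scaled to gene length and to library size) was 1 or more in at least 3 libraries, which kept 12384 of 37991 genes. All mice were C57Bl/6, and the bone marrow NK cells were sorted as NK1.1+CD49b+ by the labels, with the protocol writing the last marker as CD9b. Both groups carry Ncr1Cre, a recombinase driven by the gene of the NK receptor NKp46, and both carry floxed Tcf7, so neither differs between them by the labels. The groups used beside them were Id2KO (Ncr1Cre Id2F/F) and Ctrl, floxed mice without Cre that the protocol gives as Id2F/F and the series text as Id2F/F or Id2F/FTcf7F/F. Age and sex are not given by the labels, nor whether the 3 independent samples of a group came from separate animals. The p-values therefore measure the spread between these samples, part of which may be technical. Sex-linked RNA, given below, differed within both compared groups, so the samples of each did not all come from a single animal.

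Id2 is a helix-loop-helix protein that lacks a DNA-binding region and holds E proteins (such as E2A and HEB) away from the E-boxes they bind. Tcf7 encodes TCF-1, an HMG-box factor that marks early NK and memory-like lymphocytes. As NK cells mature in bone marrow they pass through a phase of division, then stop cycling and take on receptors such as KLRG1, CX3CR1 and S1PR5 that go with terminal differentiation and exit to the blood.

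The libraries were checked before any difference was read. Library sizes lay between 13977524 and 20209587 reads. NK genes were high in all of the compared libraries, with Ncr1 at 60.3, 63.7 and 70.4 FPKM in Tcf1KO and 62.4, 99.1 and 72.9 in DKO. None of the 11 tested NK identity genes was called, and their median difference was -0.05. Neutrophil and myeloid markers were also present: their summed FPKM over 19 genes was 4363, 1983 and 1177 in Tcf1KO and 816, 325 and 523 in DKO. Erythroid markers summed to 2539, 3601 and 1363 FPKM in Tcf1KO and to 2756, 1248 and 461 in DKO. T cell receptor complex and NKT genes summed to 1939, 2481 and 2436 FPKM in Tcf1KO and to 2428, 2703 and 2928 in DKO. Xist and Y-linked RNA split the libraries: Tcf1KO replicate 1 and DKO replicate 1 were of male type, Tcf1KO replicates 2 and 3 and DKO replicate 3 of female type. DKO replicate 2 held both, with Xist at 124 FPKM and the Y-linked Ddx3y at 10.4. In bulk RNA, fewer cells of a type and less RNA per cell cannot be told apart.

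Id2 itself checks the labels. Its RNA was at 114, 102 and 126 FPKM in Tcf1KO and at 48.8, 41.2 and 36.8 in DKO. Every DKO library was below every Tcf1KO library, and Id2 fell by 1.41 ± 0.16 on the log2(FPKM + 1) scale (SE; limma, Benjamini-Hochberg adjusted p = 0.0109). Id2KO libraries held 17.8, 17.1 and 19.2 FPKM, lower than DKO, against 124, 163 and 170.0 in Ctrl. The drop from Tcf1KO to DKO was smaller than that from Ctrl to Id2KO by 1.58 ± 0.23 (interaction; unadjusted p = 2.4e-05), with an adjusted p of 0.085 in limma. Tcf7 RNA stood at 29.6, 37.3 and 38 FPKM in Tcf1KO and at 53.9, 60 and 73.3 in DKO, a difference of 0.82 ± 0.16 that did not pass (limma, Benjamini-Hochberg adjusted p = 0.203). Ctrl libraries had 37.7, 38.6 and 46.5 FPKM of Tcf7, so the gene total does not check the Tcf7 label, and directions below rest on the labels.

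Few single genes passed the test. Of 12384 genes, 7 changed between DKO and Tcf1KO (0.0565%), 4 of them lower in DKO (0.0323%) and 3 higher (0.0242%). The 4 that fell were Id2, Klrg1, Pbk and Cdk1, a set that joins a receptor of mature NK cells to a pair of kinases of dividing cells. Without the threshold on adjusted p, 834 genes had an unadjusted p under 0.05, 467 of them lower and 367 higher. A share of 0.05 of the 12384 genes would fall there if no gene differed. Replicates that share a number also deviated together in these groups, and with the replicate number as a block 15 genes were called, 12 lower and 3 higher. That block was fitted over all 4 groups, and used with the compared groups only it called 0 genes. The 8 lower genes with a symbol that came in with the block were the mitosis genes Mki67, Ccna2, Kif11, Ckap2l and Hmgb2, the interferon-inducible Bst2, the histone gene Hist1h2bk and Prr11. Cdk1 left, at an adjusted p of 0.0546 with the block.

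Klrg1 (ENSMUSG00000030114, chr6:122270596-122282882 of GRCm38, minus strand) encodes an inhibitory lectin-like receptor that binds cadherins and appears late in NK maturation. Its RNA was at 30.2, 43.2 and 33.6 FPKM in Tcf1KO and at 5.05, 4.43 and 4.71 in DKO. The groups were far apart, and DKO was 6.33-fold lower on the log2(FPKM + 1) scale (log2 difference -2.66 ± 0.29; limma, Benjamini-Hochberg adjusted p = 0.0109). Between libraries of the same sex type the difference was -2.36 (male, 1 DKO against 1 Tcf1KO library) and -2.78 (female, 1 against 2). DKO replicate 2, which held RNA of both types, was left out.

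Pbk (ENSMUSG00000022033, chr14:65805837-65817822, plus strand) encodes a kinase of mitotic cells, also called TOPK. Tcf1KO libraries held 11.3, 8.47 and 11.4 FPKM and DKO libraries 3.07, 3.08 and 2.85. The DKO values lay close together and below all 9 other libraries of the series, whose lowest was 6.75 FPKM in Ctrl replicate 2. Pbk fell by 1.5 ± 0.15 on the log2 scale (limma, Benjamini-Hochberg adjusted p = 0.0109).

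Cdk1 (ENSMUSG00000019942, chr10:69335146-69352938, minus strand) encodes the kinase that drives entry into mitosis. Its RNA was at 5.3, 4.59 and 4.29 FPKM in Tcf1KO and at 1.38, 1.32 and 1.78 in DKO. The groups did not overlap, and Cdk1 fell by 1.20 ± 0.17 on the log2 scale, just inside the threshold (limma, Benjamini-Hochberg adjusted p = 0.0484). Leaving out any 1 of the 12 libraries ended this call, with adjusted p between 0.0573 and 0.331.

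The other called genes were small RNAs. Snord110, a nucleolar RNA that guides methylation of ribosomal RNA, was at 1.05, 2.37 and 2.18 FPKM in Tcf1KO and at 12.8, 17.7 and 17.5 in DKO (2.59 ± 0.32; limma, Benjamini-Hochberg adjusted p = 0.0172). A copy of the 5S ribosomal RNA gene, n-R5s39, was listed at 0 in all 3 Tcf1KO libraries and at 8.66, 4.11 and 4.54 FPKM in DKO. Near-identical 5S copies can share reads, so that value is uncertain, and the predicted small RNA Gm23613 is named here only to complete the count. Snord110 in DKO was above every Ctrl and Id2KO library, which lay between 4.21 and 10.4 FPKM. On reads recovered from the FPKM values neither passed (voom, Benjamini-Hochberg adjusted p = 0.415 for Snord110 and 0.249 for n-R5s39).

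Among uncalled genes of smallest p were some outside any list used here. Suox, sulfite oxidase, was at 8.84, 8.13 and 4.78 FPKM in Tcf1KO and 1.71, 1.05 and 1.67 in DKO (-1.71 ± 0.31; limma, Benjamini-Hochberg adjusted p = 0.189). Cox6a2, a muscle-type subunit of cytochrome c oxidase, was at 5.73, 5.15 and 13.8 against 28.5, 39.3 and 22.6 FPKM (1.84 ± 0.41; limma, Benjamini-Hochberg adjusted p = 0.251). Snord100, another nucleolar RNA, was at 72.1, 71.3 and 106 against 215, 157 and 343 FPKM. The groups did not overlap for these genes, nor for the pseudogene Tdpx-ps1, at 0.119, 0.0902 and 0.0829 against 2.01, 1.49 and 1.17 FPKM.

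None of the E protein genes that Id2 acts on was called, and all overlapped between the groups: Tcf12 (HEB) was at 12.1, 12.6 and 11.5 FPKM in Tcf1KO and 12.3, 12.5 and 14.2 in DKO, and Tcf3 (E2A) at 2.71, 2.18 and 2.24 against 1.73, 2.23 and 1.82. Tcf4 (E2-2) was at 1.14, 1.35 and 0.953 against 0.791, 0.655 and 1.01 FPKM. Id1 was at 1.49, 0.54 and 1.09 against 1.08, 0.181 and 0.469 FPKM, and Id4 did not reach the level for testing.

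The calls depended on which libraries entered. Leaving out Tcf1KO replicates 1, 2 or 3 left 0, 1 and 0 genes called by limma, and leaving out DKO replicates 1, 2 or 3 left 6, 2 and 0. In those fits 586 to 1077 of the 12384 genes had an unadjusted p under 0.05, a threshold that a share of 0.05 meets with no difference. The lowest of these counts are therefore no sign of remaining differences. Voom on reads recovered from the FPKM values called 2 genes, Id2 and Klrg1, and the fit of the compared groups alone called Klrg1 only.

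**Figure D1:**
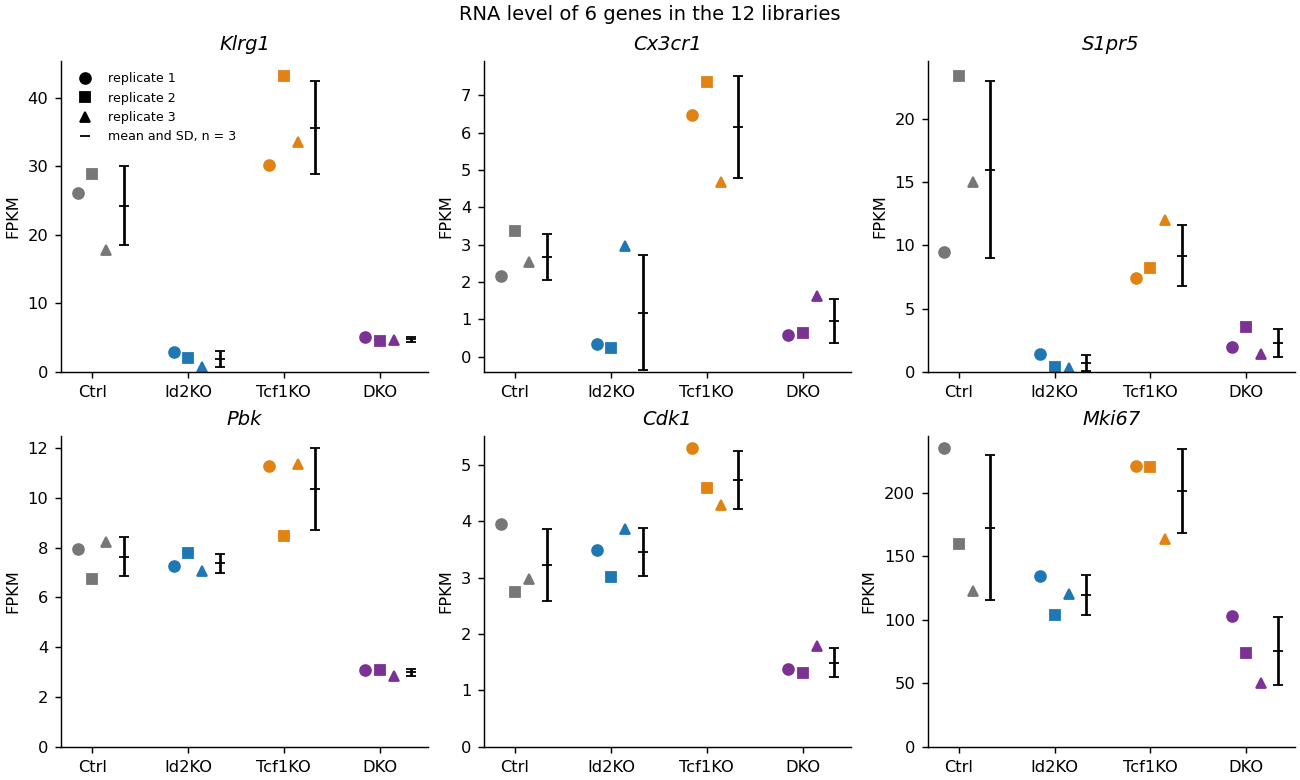
RNA level (FPKM, vertical axis) of 6 genes in the 12 libraries by group (horizontal axis). Points are single libraries, shaped by replicate number, and the bars beside them give mean and SD (n = 3). Pbk and Cdk1 are lowest in DKO and at like levels in Ctrl and Id2KO, while Klrg1 and S1pr5 are low in both Id2KO and DKO.

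Genes of mitosis stood lower in DKO as a broad group. The 3 mitosis lists (kinases, cyclins and ubiquitin ligase genes; spindle, kinesin and centromere genes; chromatin genes) had 74 tested members, of which 73 had a negative difference. Of these 74, 2 fell (Pbk and Cdk1) and 52 had no overlap between the groups with DKO lower, where 6.9% of all tested genes had such a separation. These lists, like the others here, were chosen with earlier results of these data known, so such counts are a description and not a test. The median difference over the 74 was -0.90 on the log2 scale, beside -0.01 over all 12384 genes. Their mean log2(FPKM + 1) level was 3.66, 3.25 and 3.10 in the Tcf1KO libraries and 2.64, 2.50 and 2.21 in DKO. The 3 DKO libraries were the lowest of the 12, under Ctrl at 3.49, 3.05 and 2.88 and Id2KO at 3.18, 2.79 and 2.94.

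Many promoters of these genes carry known cell cycle elements, shown here for 4 members whose libraries separated. Not every mitosis gene has the element marked here, and its share is counted below. Each line gives the 150 bases before the RefSeq transcription start (GRCm38.p6, 5′ to 3′ on the gene's strand). Capitals mark the core of the cell cycle genes homology region, TTTGAA, or its reverse complement TTCAAA, an element through which MuvB complexes act on late cell cycle genes. The windows are Cdk1 at chr10:69352913-69353062 (minus strand), Ube2c at chr2:164769779-164769928 (plus), Kif22 at chr7:127042421-127042570 (minus) and Mki67 at chr7:135716380-135716529 (minus).
Cdk1: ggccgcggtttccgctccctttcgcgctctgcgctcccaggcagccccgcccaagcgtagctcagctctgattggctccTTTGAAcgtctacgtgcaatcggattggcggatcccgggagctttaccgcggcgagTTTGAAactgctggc
Ube2c: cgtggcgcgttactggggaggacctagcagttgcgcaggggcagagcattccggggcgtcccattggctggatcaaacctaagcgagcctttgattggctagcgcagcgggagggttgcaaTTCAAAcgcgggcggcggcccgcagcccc
Kif22: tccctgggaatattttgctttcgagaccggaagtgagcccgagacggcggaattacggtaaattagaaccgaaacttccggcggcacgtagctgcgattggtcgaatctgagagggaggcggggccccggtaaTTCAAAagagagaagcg
Mki67: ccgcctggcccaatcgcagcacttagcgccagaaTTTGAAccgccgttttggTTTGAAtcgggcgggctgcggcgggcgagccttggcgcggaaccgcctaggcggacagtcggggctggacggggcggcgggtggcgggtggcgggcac
The core stood 71 and 15 bases before the start in Cdk1, 29 in Ube2c, 17 in Kif22, and 116 and 98 in Mki67. Cx3cr1, a gene outside the mitosis lists, also held it, 146 bases before the start. Pbk, Klrg1 and Ccna2 had no entry in the promoter table used.

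The element was counted in windows from 250 bases before to 50 after each start, on both strands. Of 64 windows of 61 genes in the mitosis lists, 43 held TTTGAA (67.2%), beside 17.9% of all 32851 windows. By list the share was 81.5% for spindle, kinesin and centromere genes, 62.5% for mitotic chromatin genes and 52.4% for mitotic kinases, cyclins and ligase genes. DNA replication genes had it in 9.7% of 31 windows and terminal maturation genes in 10.3% of 29. The CCAAT box, bound by NF-Y, was in 70.3% of mitosis windows and 37.4% of all. The E-box CANNTG, the element of E proteins, was in 56.2% of mitosis windows and in 72.3% of all. These matches describe letters and not binding. The shares follow from the lists and not from the libraries, and a part of these elements in the difference was not tested.

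**Figure D2:**
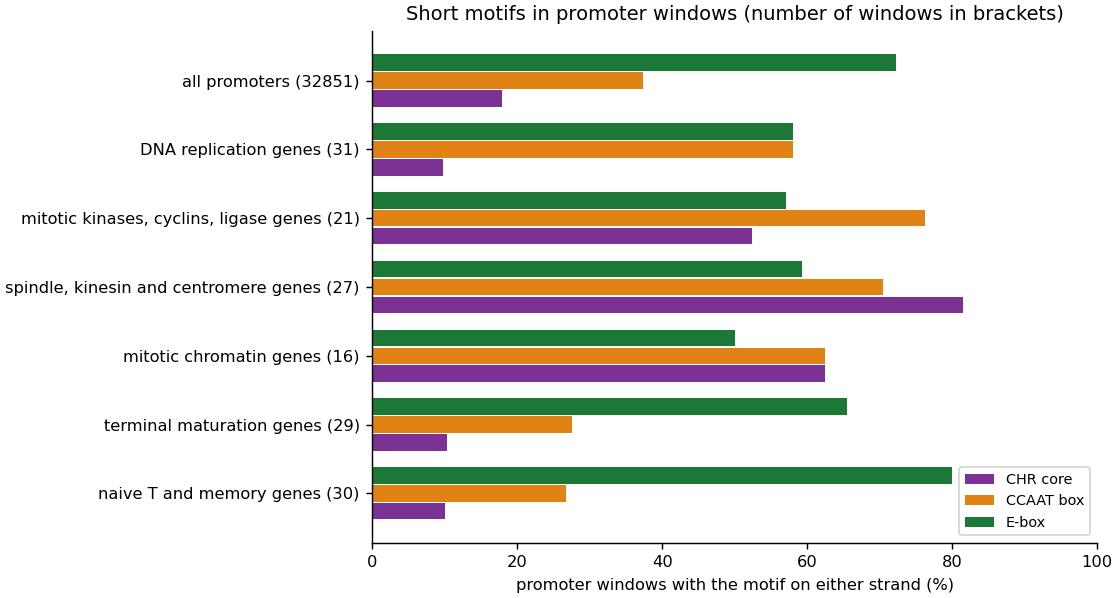
Share of promoter windows (horizontal axis, %) with the CHR core TTTGAA, the CCAAT box or the E-box CANNTG, for all RefSeq windows and 6 gene lists (vertical axis). Bars start at 0. The CHR core reaches 81.5% in spindle, kinesin and centromere genes and 17.9% over all windows.

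Mitotic kinases, cyclins and ubiquitin ligase genes had 25 tested members, of which 24 had a negative difference and 17 separated with DKO lower (median -0.93). Ube2c, the ubiquitin-conjugating enzyme of the anaphase-promoting complex, was at 70.3, 67.8 and 46.6 FPKM in Tcf1KO and at 33.7, 13.9 and 12 in DKO (-1.71 ± 0.36; limma, Benjamini-Hochberg adjusted p = 0.251). Ccna2, cyclin A2, was at 33.4, 27.7 and 16.1 against 10.8, 8.35 and 5.76 FPKM (-1.5). Both genes separated without passing the test. The exception in the list was Pttg1, securin, at 2.39, 2.45 and 3.67 FPKM in Tcf1KO and 2.66, 4.5 and 7.04 in DKO, where the groups overlapped.

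Spindle, kinesin and centromere genes were negative in all 29 tested members, and 24 of them separated (median -0.97). Ckap2l, a spindle protein, was at 21.9, 17.9 and 13.3 FPKM in Tcf1KO and at 7.45, 5.59 and 2.93 in DKO (-1.61 ± 0.34; limma, Benjamini-Hochberg adjusted p = 0.251). Kif22, a kinesin that moves chromosome arms, had the smallest p of the list, at 11.6, 10.2 and 7.63 against 3.79, 2.67 and 3.81 FPKM (-1.28 ± 0.20; limma, Benjamini-Hochberg adjusted p = 0.0945). Cenpe, a kinetochore kinesin, was at 31.9, 21.7 and 20.6 against 10.1, 8.03 and 9.01 FPKM. In each of these genes the lowest Tcf1KO library was above the highest DKO library.

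Mitotic chromatin genes were negative in 20 of 20, and 11 separated (median -0.73). Mki67, the proliferation antigen Ki-67 that coats mitotic chromosomes, was at 221, 221 and 164 FPKM in Tcf1KO and at 103, 73.7 and 50 in DKO (-1.45 ± 0.28; limma, Benjamini-Hochberg adjusted p = 0.204). Hmgb2, a DNA-bending protein of dividing cells, was at 152, 117 and 99.9 against 77.1, 58.1 and 53 FPKM. DKO replicate 1 was the highest of its group for both genes and still below every Tcf1KO library.

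Genes that copy DNA were lower by less. DNA replication genes had 29 tested members, 28 negative and 12 separated, with a median of -0.45. Gins2, a subunit of the replicative helicase, was at 2.95, 1.25 and 1.61 FPKM in Tcf1KO and at 0.336, 0.326 and 0.279 in DKO (-1.12 ± 0.40; limma, Benjamini-Hochberg adjusted p = 0.595). Chaf1a, a chaperone that places histones behind the fork, was at 5.15, 6.17 and 5.03 against 2.04, 3.39 and 2.91 FPKM. The sliding clamp Pcna overlapped, at 30.3, 29.8 and 27.3 against 29.6, 21.9 and 27.8 FPKM, and the helicase subunit Mcm5 differed by 0.05. The G1 and S phase regulators had 15 of 18 negative (median -0.38, 3 separated; -0.23 without Tcf1KO replicate 1), and the cell cycle inhibitors 6 of 12 (median 0.01). The cyclin-dependent kinase phosphatase Cdkn3, named as a gene of small p, was at 10.1, 9.35 and 5.3 FPKM in Tcf1KO and at 1.76, 1.62 and 2.61 in DKO.

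Histone genes, a set chosen after their values were seen, were lower too. Of 44 tested histone cluster genes, 41 were negative and 27 separated (median -1.05). Hist1h2bb was at 94.9, 49.9 and 53.8 FPKM in Tcf1KO and at 14.7, 21.9 and 6.13 in DKO (-2.24 ± 0.46; limma, Benjamini-Hochberg adjusted p = 0.251). H2afx, the histone variant marked at DNA breaks, was at 187, 155 and 126 against 68.5, 75.1 and 65.8 FPKM (-1.14). Histone genes are near-identical copies, so reads could be split between them.

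**Figure D3:**
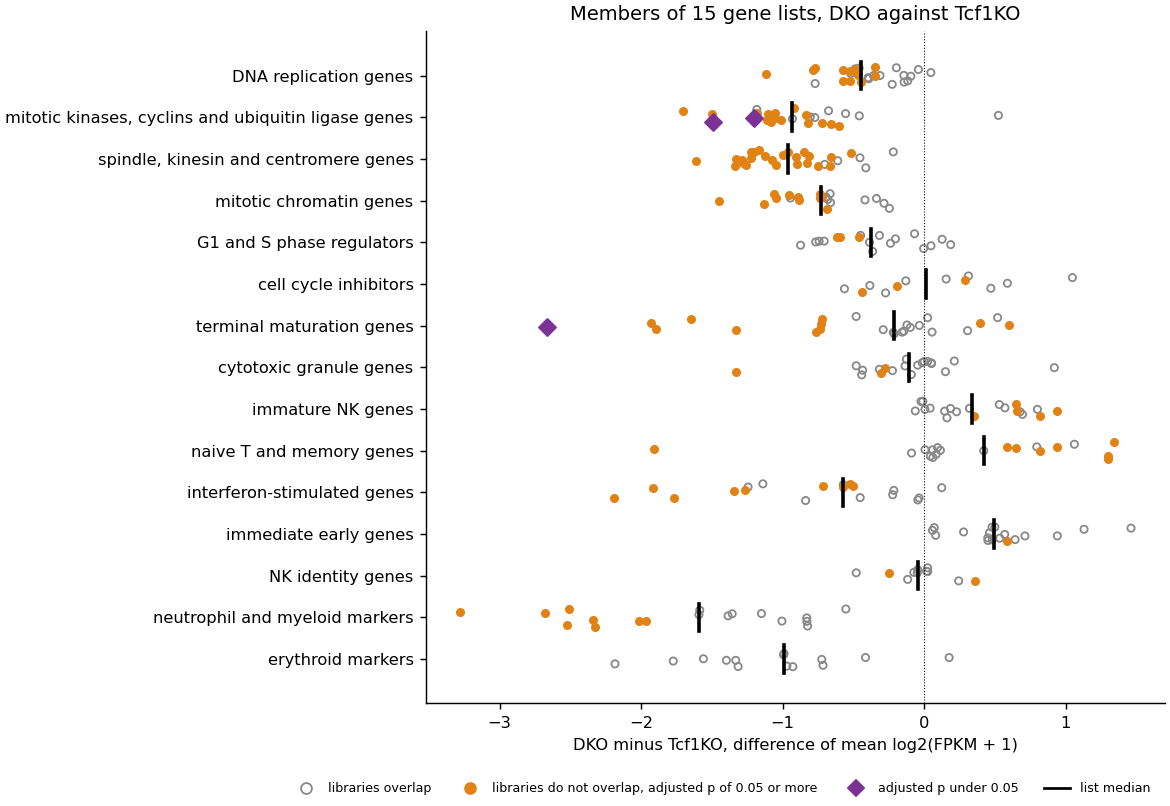
Difference of mean log2(FPKM + 1), DKO minus Tcf1KO (horizontal axis), for the tested members of 15 gene lists (vertical axis, points spread for legibility). Filled points have no overlap between the 3 DKO and 3 Tcf1KO libraries, diamonds passed the test, and black bars are list medians. The mitosis lists lie to the left of 0 except for Pttg1, with medians from -0.97 to -0.73.

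Markers of neutrophils and red cell precursors also stood lower in DKO. All 18 tested neutrophil and myeloid markers were negative (median -1.59, 8 separated, 0 called), as were 13 of 14 erythroid markers (median -0.99, 0 separated). The sizes rested on single libraries: the neutrophil median was -0.74 without Tcf1KO replicate 1 and -2.49 without Tcf1KO replicate 3, and the erythroid median -1.62 without DKO replicate 1 and -0.45 without DKO replicate 3. Basophil and mast cell markers had no steady direction: 7 of 10 were negative with a median of -0.31, which was 0.36 without Tcf1KO replicate 1, 0.23 without DKO replicate 3, -0.87 without Tcf1KO replicate 3 and -1.01 without DKO replicate 1. Among the defining markers, Ngp was at 656, 321 and 195 FPKM in Tcf1KO and 67.1, 12.2 and 49.2 in DKO. Elane was at 44.7, 22.6 and 0.108 FPKM in Tcf1KO and 8.35, 6.61 and 0 in DKO. Of the 19 neutrophil markers, 0, 0 and 1 were at 0 in the Tcf1KO libraries and 0, 3 and 6 in DKO.

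Some values bear on how these markers and the mitosis genes go together. DKO replicate 1 had higher mean log2 levels of neutrophil markers (3.63) and of erythroid markers (5.19) than Tcf1KO replicate 3 (3.33 and 4.22), a pair chosen after the values were seen. On summed FPKM the order was reversed for neutrophil markers, at 816 in DKO replicate 1 and 1177 in Tcf1KO replicate 3, and Ngp was lower in DKO (67.1 against 195). In that pair 68 of 74 mitosis genes were lower in DKO (median -0.46), beside 49.2% of all tested genes. An other-lineage score averaged the scaled levels of 42 neutrophil, erythroid and basophil markers. With it as a term in the fit, the median over the 74 genes was -0.76 and 73 were negative. Within both compared groups the mitosis mean followed the score by replicate. The score was 1.27, 0.85 and -0.35 in Tcf1KO, with mitosis means of 3.66, 3.25 and 3.10. In DKO it was 0.55, -0.36 and -0.78, with means of 2.64, 2.50 and 2.21. In Ctrl and Id2KO the orders differed. From Ctrl to Id2KO the neutrophil markers differed by a median of -2.98, and the mitosis genes by -0.18. The part of other cells in the mitosis difference was not tested beyond these values. Within libraries of the same sex type the mitosis median was -1.02 (male, 1 DKO against 1 Tcf1KO library) and -1.01 (female, 1 against 2), without DKO replicate 2.

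**Figure D4:**
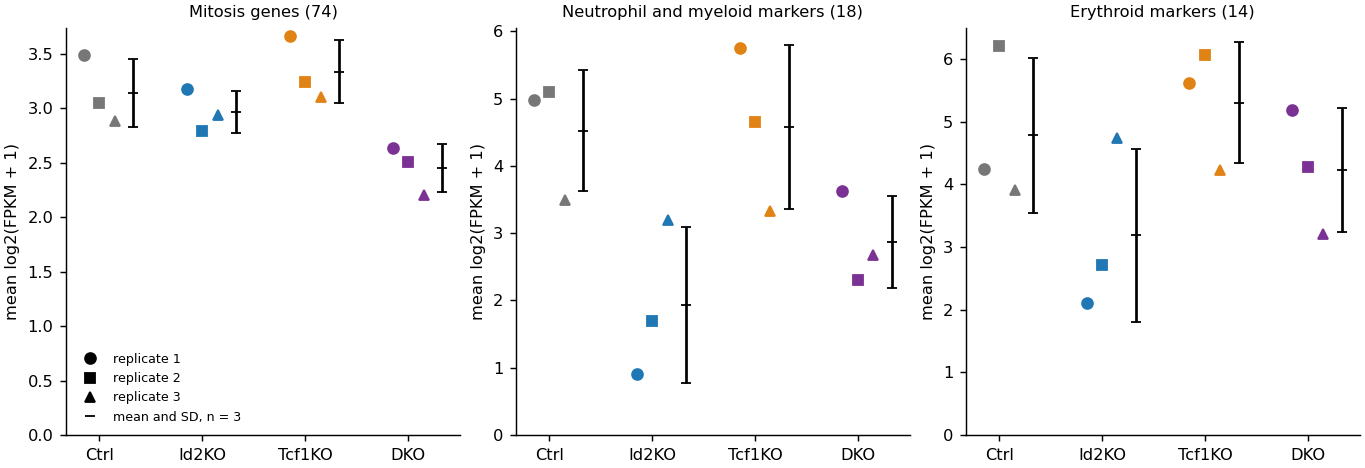
Mean log2(FPKM + 1) over the tested genes of 3 lists (vertical axes) in the 12 libraries by group. Points are libraries, shaped by replicate number, with mean and SD (n = 3) beside them. Mitosis genes are lowest in the 3 DKO libraries (2.21 to 2.64), while neutrophil markers are lowest in Id2KO replicate 1.

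Terminal maturation genes differed unevenly. Of 24 tested, 18 were negative, Klrg1 alone fell, and 9 separated with DKO lower against 2 with DKO higher (median -0.22). Separation with DKO higher was found for 5.74% of all tested genes.

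Receptors and effectors of late NK cells were among the separated genes. Cx3cr1, the fractalkine receptor (ENSMUSG00000052336, chr9:119901616-120069879, minus strand), was at 6.47, 7.35 and 4.67 FPKM in Tcf1KO and at 0.573, 0.645 and 1.64 in DKO. The groups did not overlap, and the difference of -1.90 ± 0.41 did not pass (limma, Benjamini-Hochberg adjusted p = 0.251). Without Id2KO replicate 3, a library outside both groups, its adjusted p was 0.0406. S1pr5, a sphingosine-1-phosphate receptor needed for exit from bone marrow, was at 7.4, 8.2 and 12 against 1.95, 3.55 and 1.43 FPKM (-1.65 ± 0.36; limma, Benjamini-Hochberg adjusted p = 0.251). Cma1, a chymase of granules, was at 10.4, 16.6 and 17 against 4.23, 3.77 and 1.63 FPKM. Gzmb, granzyme B, was at 104, 157 and 163 against 67.2, 81.2 and 29.7 FPKM. Every DKO library was below every Tcf1KO library for these 4 genes.

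NK transcription factors as a list did not lean to one side: 18 of 35 were positive and 17 negative, with a median of 0.03, 5 separated and higher, 7 separated and lower, and 0 called. The 3 factors of terminal maturation given here, Prdm1 chosen after its values were seen, were among those lower in DKO. Tbx21 (T-bet) was at 30.3, 39 and 31.7 FPKM in Tcf1KO and at 16.9, 20.6 and 22 in DKO (-0.73 ± 0.17; limma, Benjamini-Hochberg adjusted p = 0.267). Zeb2, which acts downstream of T-bet, was at 5.33, 6.44 and 4.61 against 3.57, 3.69 and 1.5 FPKM. Prdm1 (Blimp-1) was at 7.43, 7.42 and 5.81 against 2.97, 4.19 and 4.22 FPKM. All 3 separated and none was called. The integrin Itgam (CD11b), a stage marker that myeloid cells also carry, was at 10.7, 7.39 and 6.65 against 4.29, 4.93 and 4.14 FPKM (-0.74).

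A pair of members separated with DKO higher. Ly6c2, a surface antigen of mature NK cells and of myeloid cells, was at 216, 260 and 293 FPKM in Tcf1KO and 315, 302 and 392 in DKO. S1pr1, another sphingosine-1-phosphate receptor, was at 10.9, 9.8 and 8.22 against 13.3, 19.9 and 12.7 FPKM. Cytotoxic granule genes as a list had 14 of 20 negative (median -0.11, 3 separated and lower), and without DKO replicate 3 the median was -0.012. Ly49 and NKR-P1 receptors had 15 of 17 negative (median -0.22), and 1 of 17 separated, near the share over all genes. Without DKO replicate 3 their median was -0.13 and without DKO replicate 2 it was -0.40.

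Genes of early NK cells and of naive or memory T cells stood higher in DKO. Naive T and memory genes were positive in 17 of 19 tested members (median 0.42), with 7 separated and DKO higher, and immature NK genes were positive in 17 of 20 (median 0.33, 5 separated). No member of either list was called. Both lists hold Tcf7 and Il7r, so their counts are not independent. RNA of T cell receptor genes was present in all of the compared libraries, and the part of T or NKT cells in these differences was not tested.

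Id3, the close relative of Id2 that also binds E proteins, was at 2.45, 4.72 and 5.78 FPKM in Tcf1KO and at 10.3, 9.72 and 15.4 in DKO (1.30 ± 0.33; limma, Benjamini-Hochberg adjusted p = 0.347). Cd163l1, a scavenger receptor, was at 0.114, 0 and 0.287 against 2.04, 2.44 and 1.23 FPKM (1.34 ± 0.25; limma, Benjamini-Hochberg adjusted p = 0.202). Cxcr5, the receptor that guides lymphocytes into follicles, was at 0.653, 1.28 and 1.29 against 5.98, 2.54 and 4.16 FPKM. For each of the 3 genes every DKO library was above every Tcf1KO library.

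Among receptors, Il7r, the interleukin 7 receptor chain, was at 13.8, 16.6 and 9.18 FPKM in Tcf1KO and 20.5, 29.6 and 27.1 in DKO. Cxcr3, a chemokine receptor, was at 47.5, 58.8 and 54.9 against 66.9, 97.7 and 92.8 FPKM (0.65). Tigit, an inhibitory receptor that binds nectin-family ligands, was at 33.1, 29.6 and 21.2 against 65.5, 77.7 and 50.2 FPKM (1.18 ± 0.24; limma, Benjamini-Hochberg adjusted p = 0.251). All 3 genes separated, with adjusted p above the threshold. Il7r and Cxcr3 belong to the immature NK list. Tigit belongs to the NKG2, CD94 and activating receptors, which had 12 of 22 positive, 2 separated and higher, and a median of 0.02.

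Factors of early lymphocytes followed the same order. Myb was at 5.25, 4.62 and 4.02 FPKM in Tcf1KO and 6.64, 6.91 and 9.12 in DKO. Tox, a factor needed for early NK development, was at 9.57, 8.76 and 9.4 against 14.2, 11.7 and 15.7 FPKM. Trbc1, a constant segment of the T cell receptor beta chain, was at 246, 316 and 268 against 445, 522 and 482 FPKM, although its list, T cell receptor complex and NKT genes, had a median of 0.12 with 14 of 19 positive (0.08 without Tcf1KO replicate 1 and 0.24 without Tcf1KO replicate 2). Ly6d was 1 of 2 naive T and memory genes with a negative difference, at 4.43, 8.41 and 0.43 FPKM in Tcf1KO and 0.387, 0 and 0 in DKO.

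Interferon-stimulated genes were lower in DKO, with 18 of 19 tested members negative and 9 separated (median -0.57, 0 called). Bst2 (tetherin), which holds budding virus at the membrane, was at 16.7, 24.2 and 11 FPKM in Tcf1KO and at 4.11, 6.55 and 1.56 in DKO (-1.92 ± 0.47; limma, Benjamini-Hochberg adjusted p = 0.319). Isg15, a ubiquitin-like modifier, was at 22.4, 37.9 and 14.5 against 8.04, 8.46 and 0.742 FPKM. Replicate 2 was the highest and replicate 3 the lowest of both groups for both genes.

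Immediate early genes, transcribed within minutes of a stimulus or of cell handling, had 18 of 18 positive (median 0.49), with 1 separated and 0 called. The median rested on single libraries: it was 0.12 without Tcf1KO replicate 2, 0.76 without Tcf1KO replicate 3, and 0.31, 0.98 and 0.29 without DKO replicates 1, 2 and 3. Their libraries spread widely within each group: Dusp2 was at 28.7, 26 and 72.9 FPKM in Tcf1KO and at 111, 37.4 and 143 in DKO. Atf3 was at 0.882, 1.48 and 6.63 against 8.65, 1.01 and 37.2 FPKM. In both genes the groups overlapped and DKO replicate 2 was the low one of its group.

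Targeting Id2 with Tcf7 intact gave a reference that shares no library with the comparison above. Ctrl carries no Cre, so Id2KO and Ctrl differ in Cre as well as in Id2, while DKO and Tcf1KO both carry it. As given above, Id2 RNA also fell by less from Tcf1KO to DKO than from Ctrl to Id2KO. A contrast between the backgrounds, the interaction included, therefore cannot tell Tcf7 targeting apart from Cre or from the smaller drop in Id2. Between Id2KO and Ctrl 22 genes were called (0.178%), and 6.75% of genes separated with Id2KO lower and 7.11% with Id2KO higher. Across all 12384 genes the differences on the 2 backgrounds had a Pearson r of 0.24, given as a description since genes are not independent replicates.

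Maturation genes were lower on both backgrounds. The terminal maturation list had a median of -0.90 from Ctrl to Id2KO, with 22 of 24 negative, 17 separated and 5 called lower, beside -0.22 from Tcf1KO to DKO. The 24 genes had an r of 0.74 between backgrounds, and 18 were negative in both. Klrg1 differed by -3.20 with Tcf7 intact and by -2.66 with Tcf7 targeted, S1pr5 by -3.28 and -1.65, and Itgam by -2.16 and -0.74. For Itgam the interaction was 1.43 (unadjusted p = 0.00025) and for S1pr5 1.64 (unadjusted p = 0.0082). Neither interaction passed the adjusted threshold.

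Most early genes were higher on both. Naive T and memory genes had a median of 0.52 from Ctrl to Id2KO and 0.42 from Tcf1KO to DKO, with 14 of 19 positive in both and r of 0.70. Immature NK genes had medians of 0.31 and 0.33, with 12 of 20 positive in both and r of 0.37. From Ctrl to Id2KO 7 of those 20 were negative. Id3 differed by 2.56 with Tcf7 intact (limma, Benjamini-Hochberg adjusted p = 0.0102) and by 1.30 with Tcf7 targeted. Nsg2 differed by 2.26 (limma, Benjamini-Hochberg adjusted p = 0.000974) and by 0.65. Il7r was -0.55 on the first background and 0.93 on the second.

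Mitosis genes were mostly lower from Ctrl to Id2KO as well, by less: 57 of 74 were negative, 56 of them negative in both comparisons, and 25 of 29 spindle, kinesin and centromere genes. Their median there was -0.18, with 4 of 74 separated and lower, 2 separated and higher, and 0 called, beside -0.90 and 52 separated from Tcf1KO to DKO. The median interaction over the 74 genes was -0.80, and 24 of them had an unadjusted interaction p under 0.05. Pbk, at 7.94, 6.75 and 8.22 FPKM in Ctrl and 7.26, 7.79 and 7.04 in Id2KO, differed by -0.04 there (interaction -1.45, unadjusted p = 3.4e-05). Cdk1, at 3.94, 2.74 and 2.97 against 3.49, 3.01 and 3.85 FPKM, differed by 0.08 (interaction -1.28, unadjusted p = 0.0003). The Ctrl and Id2KO libraries overlapped for both genes.

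No gene passed the test of the interaction itself: 0 of 12384 (0%) were called by limma and 0 by voom. In limma 735 had an unadjusted p under 0.05, a threshold that a share of 0.05 meets with no difference. The smallest adjusted p was 0.085. The contrast in mitosis genes between backgrounds rests on list medians and unadjusted values, and Cre differs in the Tcf7-intact comparison only.

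**Figure D5:**
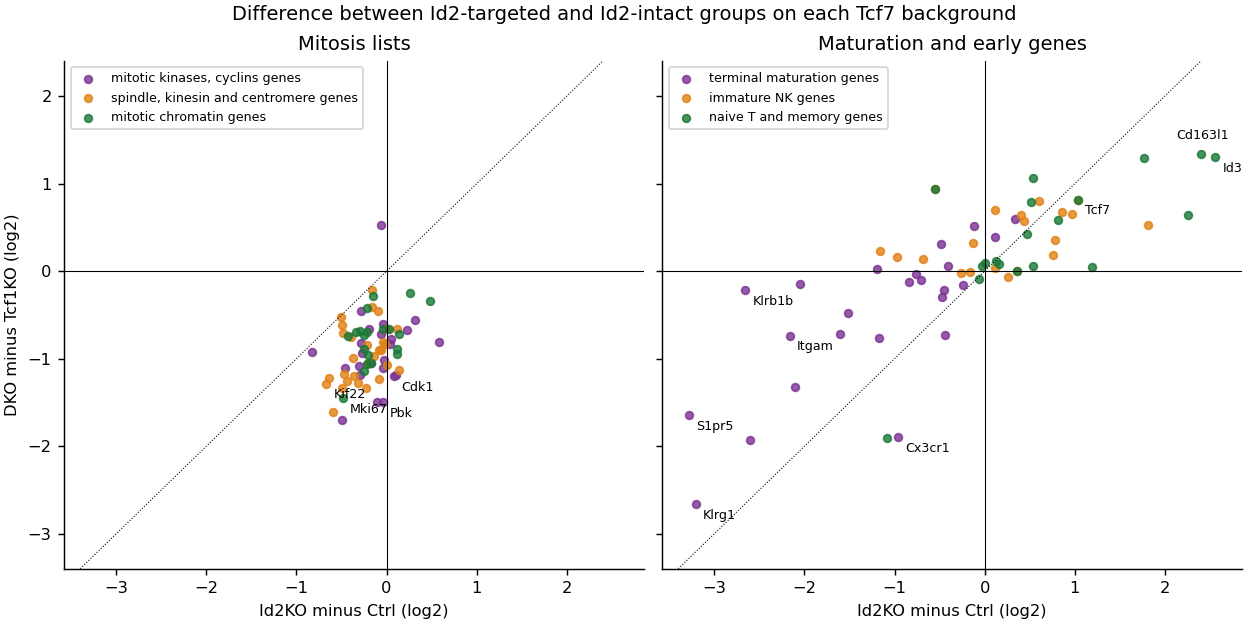
Each point is a gene, with its log2 difference Id2KO minus Ctrl (horizontal axis) and DKO minus Tcf1KO (vertical axis); the dotted line marks equal differences. Most mitosis genes (left) lie below the line, with a median horizontal value of -0.18, while Pttg1 lies above the line. Maturation and early genes (right) spread from the lower left to the upper right, with Klrg1 at -3.20 and -2.66.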

How the data were processed

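RNA-seq of sorted bone marrow NK cells was deposited as 1 table of FPKM values for 12 libraries, scaled by the authors to gene length and library size. Per the submitters' processing notes the tools include TopHat2 2.1.0, HTSeq 0.6.1, Trimmomatic 0.33 and edgeR, and the genome is mm10; the strand setting of the counting is not given in the sources used here, so overlapping and antisense genes cannot be told apart.

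From the deposited FPKM, log2(FPKM + 1) was computed and limma, with group as the only term, was run over the 12 libraries together (version 3.58.1, R 4.3.3, eBayes with a variance trend). P-values were two-sided and Benjamini-Hochberg adjusted over 12384 genes, with a threshold of 0.05. The contrasts were DKO minus Tcf1KO, Id2KO minus Ctrl, and their difference (the interaction). Genes are called separated when the 3 libraries of one group lie wholly above or below the 3 of the other. An exact permutation test of 3 against 3 cannot go below 0.10, so none was used for single genes. FPKM steps gave whole reads for 23704 of 23707 genes above 0 (99.987%, within 1e-05 reads), which entered voom as an alternative and called 2 genes. The procedure was tested on simulated data.

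Same-numbered Tcf1KO and DKO libraries deviated together over 3581 genes (correlations of 0.33, 0.22 and 0.41). A fit with the replicate number as a block over all 4 groups is therefore given where it changes a call. Same-numbered Id2KO and Tcf1KO libraries did not deviate together (-0.17, -0.09 and -0.18). Over all groups the best match had the same number in 17 of 36 comparisons. Any pairing is inferred from the labels' numbers and this check, not from a stated shared animal or day.

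Symbols came from GENCODE M21 (GRCm38) for 32938 of the gene IDs, and promoter windows from RefSeq (GRCm38.p6). Genes were named from Id2, the Id and E protein genes, Tcf7, Klrg1, Pbk, Cdk1, Cx3cr1, called genes, the uncalled separated genes of smallest p up to 10 in each direction, and up to 4 genes of smallest p in each of 29 lists; of these list members and of lists with medians near 0, not all are printed. Genes with Gm or Rik names were passed over. Elane, Pcna, Mcm5, Pttg1, Kif11, Ly6d, Ly6c2, S1pr1, Nsg2, Prdm1, Cma1, Hist1h2bb, Hist1h2bk and Gm23613 fall outside that rule and were chosen after their values were seen. Comparison, members and lists were chosen with earlier results of these data known. Tables were made with pandas 2.3.3 and numpy 2.4.6 and figures with matplotlib 3.10.9, in Python 3.11.15.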

Additional observations from a re-analysis of the deposited data

Results flagged for a closer look

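Plxnc1, a receptor for a semaphorin, had opposite differences on the Tcf7-targeted and Tcf7-intact backgrounds in every library. It was at 11.8, 12.1 and 11.3 FPKM in Tcf1KO and 5.65, 7.72 and 4.91 in DKO, but at 13.4, 13.3 and 15.3 in Ctrl and 16.3, 20.1 and 16.4 in Id2KO. The interaction was -1.16 on the log2 scale (limma, unadjusted p = 0.00045) and did not pass the adjusted threshold.

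Scamp2, a protein of recycling vesicles, was opposite the other way. Tcf1KO libraries held 11.7, 12.8 and 10.9 FPKM and DKO libraries 17, 17.4 and 18.6, while Ctrl held 17.1, 17.8 and 14.7 and Id2KO 11.1, 9.3 and 10.4. The interaction was 1.18 (limma, unadjusted p = 7e-05), again short of the adjusted threshold. Both were picked for a small p among many genes.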

How the results depend on the processing

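The count of 7 called genes moved under many settings, while the medians of the mitosis, DNA replication, histone, terminal maturation and immature NK lists moved by less than 1.5 times in every setting run. It was 4 with a pseudocount of 0.1, with no filter and with a filter at FPKM 5, 1 in a fit of the compared groups only, 0 at a threshold of 0.01 (834 genes at unadjusted p under 0.05), and 2 with voom. With the replicate block it was 15, and 0 when that block was used with the compared groups only; pairing by number moved neither other count past 1.5 times. Leaving out 1 library gave 0 to 7 calls, and leaving out the 3 libraries of lowest array weight (chosen after seeing the data) gave 2.

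For Id2KO against Ctrl the count of 22 became 2 in the compared groups only, 10 at the 0.01 threshold, 11 with the other-lineage score as a term, 8 without the 3 low-weight libraries, and 13 to 27 when 1 library was left out. The interaction count of 0 became 1 without a variance trend, and 0 to 1 when 1 library was left out.

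The median difference of mitotic kinases, cyclins and ubiquitin ligase genes was -1.23 with a pseudocount of 0.1 and -1.19 with voom. Interferon-stimulated genes had -0.93, -0.99 and -0.91 with a pseudocount of 0.1, a filter at FPKM 5 and voom, and naive T and memory genes 0.10 with no filter and 0.62 with a filter at FPKM 5. NK transcription factors, at a median of 0.03 in the report, had -0.041 with a filter at FPKM 5, -0.044 to 0.095 without 1 library and -0.031 without the 3 low-weight libraries. With the other-lineage score as a term, neutrophil markers had -0.47, erythroid markers 0.10 and basophil and mast cell markers 0.88. The single genes that changed sign were Mcm5, at 0.05 as reported and -0.16 to 0.19 when 1 library was left out (-0.16 without Tcf1KO replicate 3, -0.044 without DKO replicate 2) and Elane (0.29 with the score). The cause of these shifts was not tested, beyond fewer libraries or genes entering. With 3 libraries a group, only large differences can pass an adjusted threshold.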
